A study of Homo sapiens with 8 samples.

Results

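Bombesin-like peptides act through a small family of receptors, and 5 genes of that system were followed here: the receptors GRPR, NMBR and BRS3 and the peptide precursors GRP and NMB. They were taken by the gene symbol of the array's annotation, and GRPR was chosen by its log2 difference between RA (retinoic acid) and DMSO on these arrays, one of the lowest in siRNF20 and in siLacZ cells. The 5 genes were 5 of 19426 genes with a symbol on the array and 5 of the 18732 genes that had at least 1 row above the filter on dim rows. Expression was measured on Affymetrix exon arrays, on which several rows (probe sets) report on each gene.

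The cells were NTera2/D1, a human embryonal carcinoma line whose differentiation can be started with retinoic acid (RA). The 4 groups were RA siRNF20, DMSO siRNF20, RA siLacZ and DMSO siLacZ, with 2 arrays each, numbered GF117 and GF120. RA was given at 10 µM and the series describes a treatment of 72 h, DMSO was the vehicle, siRNF20 is a small interfering RNA against RNF20, an E3 ligase for ubiquitin on histone H2B, and siLacZ, against a bacterial gene, was the control. All groups shared the line, a small interfering RNA and the growth medium, and the labels call the replicates biological duplicates.

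The bombesin receptors are G protein-coupled receptors that act mainly through Gq, phospholipase C and the release of calcium from internal stores. GRPR binds gastrin-releasing peptide with high affinity, NMBR binds neuromedin B, and BRS3, an orphan receptor, binds neither natural peptide with high affinity. GRP and NMB encode the precursors, which are cut and amidated before release. In neurons and neuroendocrine cells the peptides act as transmitters and secretagogues, and in several tumour types GRP and GRPR are known as an autocrine growth loop.

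The GF117 RA siLacZ array stood apart. Across genes, with all rows used, its values had a Pearson correlation of 0.506 to 0.557 with those of the other arrays, against 0.945 to 0.981 among the other 7. It was left out of the fits given first, so that the RA siLacZ group holds 1 array (GF120) that is assumed to vary like the others, and its values are given separately. RNF20 had intensities of 59.3 to 89.3 on the 4 siRNF20 arrays, against 273 to 303 on the 3 siLacZ arrays kept. On the array that stood apart it had 67.7, a value among those of the siRNF20 arrays in spite of the siLacZ label. Other bright genes were also low there, so this value alone does not tell which small interfering RNA was present. SOX2 had log2 5.09 there, against 9.90 to 10.73 on the other RA arrays, and PODXL had 6.82, against 10.20 to 10.43. The RNF20 log2 difference between siRNF20 and siLacZ was -1.94 (SE 0.23, limma adjusted p = 0.237) in DMSO and -2.02 (SE 0.29, adjusted p = 0.110) in RA. The summed intensity of 9 embryonal carcinoma markers was 6635 to 8805 on the 3 RA arrays, against 11017 to 11682 on the 4 DMSO arrays. That of 6 RA response genes was 3658 to 4240 in RA and 274 to 339 in DMSO, that of 6 neuron markers 561 to 689 in RA and 273 to 374 in DMSO, and that of 6 neuroendocrine markers 1134 to 1478 in RA and 989 to 1402 in DMSO. The sums of 5 fibroblast markers were 152 to 196 in RA and 106 to 136 in DMSO, and those of 3 blood markers 24.1 to 42.0 in RA and 29.9 to 31.6 in DMSO. On the array that stood apart these sums were 888, 650, 196, 403, 539 and 32.8 in the same order. Single markers differed within the sums. On the RA arrays kept CRIPTO, DNMT3B, L1TD1, NANOG and POU5F1 were all below DMSO, while LIN28A, PODXL, SALL4 and SOX2 overlapped it. DCX, MAP2 and SNAP25 were all above DMSO, while ELAVL4, STMN2 and TUBB3 overlapped it. Of the neuroendocrine markers only NCAM1 did not overlap, being higher in RA. The brightest, ENO2, had log2 9.54 to 10.04 in RA and 9.48 to 10.17 in DMSO. The part of these markers in the results below was not tested, and in bulk RNA fewer cells that express a gene and less RNA per cell cannot be told apart.

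GRPR, the receptor of gastrin-releasing peptide, had much lower signal in RA than in DMSO whichever small interfering RNA was present. Its intensity, the median of the 5 of its 6 rows above the filter, was 9.95 (GF117) and 14.5 (GF120) in RA siRNF20 cells, against 194.5 and 260.8 in DMSO siRNF20 cells. It was 19.7 on the 1 RA siLacZ array kept and 7.07 on the array that stood apart, against 172.3 and 277.6 in DMSO siLacZ cells. The RA and DMSO arrays did not overlap, and each RA value lay close to or below 15.7, the intensity of the filter on dim rows (log2 3.97), so the RA level is a dim signal whose size is poorly fixed.

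**Figure D1:**
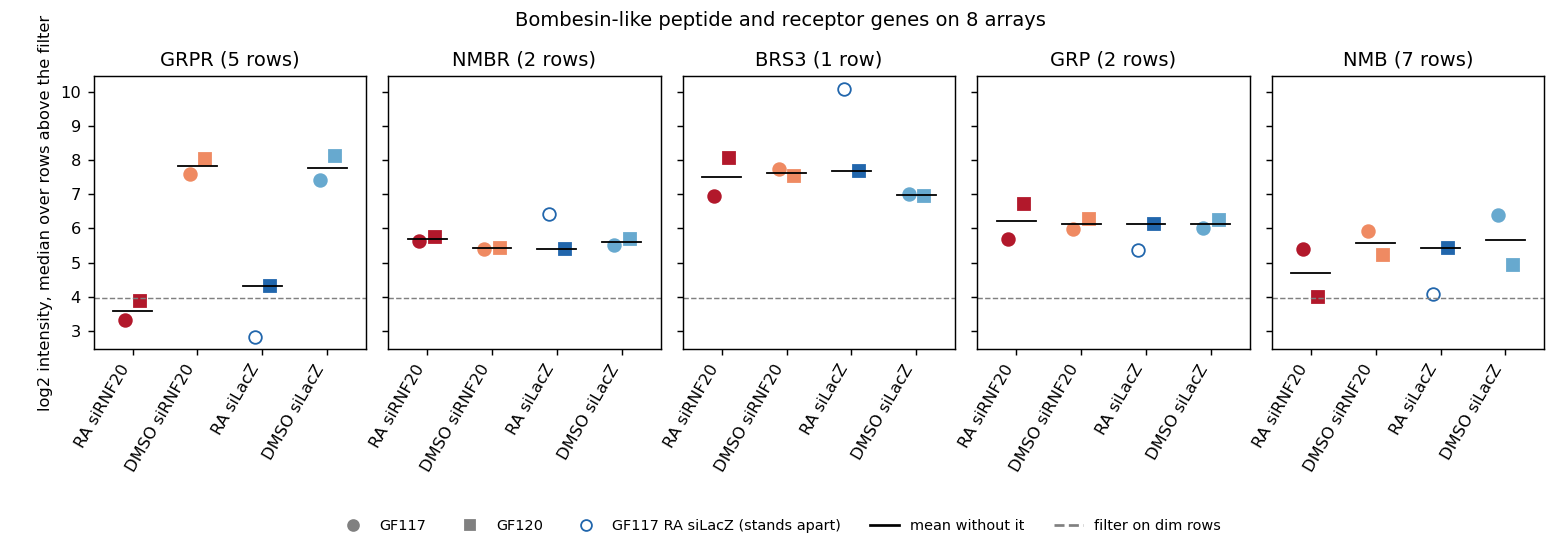
Log2 intensity of the 5 bombesin-like genes (one panel each) on each of the 8 arrays, in the order RA siRNF20, DMSO siRNF20, RA siLacZ, DMSO siLacZ; circles are GF117 and squares GF120, the open circle is the GF117 RA siLacZ array, bars are group means without it and the dashed line is the filter on dim rows. GRPR lies between log2 3.31 and 4.30 on the 3 RA arrays kept and between 7.43 and 8.12 on the 4 DMSO arrays, while the RA and DMSO arrays of GRP, NMB, NMBR and BRS3 overlap.

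On the log2 scale GRPR averaged 3.59 ± 0.39 in RA siRNF20 cells and 7.82 ± 0.30 in DMSO siRNF20 cells (SD, n = 2 each). It was 4.30 on the single RA siLacZ array and averaged 7.77 ± 0.49 in DMSO siLacZ cells (SD, n = 2). The log2 difference was -4.23 (SE 0.30), or 18.7-fold lower with RA, in siRNF20 cells, and -3.47 (SE 0.37), or 11.1-fold lower with RA, in siLacZ cells. These RA differences chose the gene and are given as a description with no test. Within GF117 the log2 difference was -4.29 in siRNF20 cells and -4.61 in siLacZ cells, the second with the array that stood apart, and within GF120 it was -4.16 and -3.81. The size depends on the scale: with an offset of 16 added before the logarithm it was -3.10 in siRNF20 cells and -2.72 in siLacZ cells.

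Against the other genes, GRPR had the lowest log2 RA difference of all 18732 genes in siRNF20 cells. Among the genes called lower there, the next was VSNL1 at -3.57. In siLacZ cells GRPR was the 4th lowest of all 18732, with NANOG at -3.82 just before it. ETS1 at -3.43 was the next among the genes called lower. GRPR was chosen by these differences, so its places are a description and not a test. Here a gene is called when its limma adjusted p, over all 18732 genes, is below 0.05. That rule called 3.92% of genes with RA in siRNF20 cells (1.79% higher and 2.13% lower) and 3.91% in siLacZ cells (1.88% higher and 2.03% lower).

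All 6 GRPR rows were lower with RA. In each row the 3 RA values lay below the 4 DMSO values, as they did in 9.72% of all rows above the filter. At the level of genes GRPR was the 1 of the 5 whose RA values all lay below the DMSO values, as those of 12.6% of all genes did, and none of the 5 had them all above, as 8.07% did. The rows are numbered here in the order of their probe set numbers. Row 1 had 4.96 and 4.70 in RA siRNF20 cells and 30.2 in RA siLacZ cells, against 146.9 and 167.3 in DMSO siRNF20 cells and 137.7 and 151.3 in DMSO siLacZ cells. Row 2, the brightest in DMSO, had 29.8 and 34.0 in RA siRNF20 cells and 19.7 in RA siLacZ cells, against 331.5 and 352.7 in DMSO siRNF20 cells and 234.8 and 421.1 in DMSO siLacZ cells. The difference did not rest on 1 row, but these rows give the gene value that chose GRPR, so they are no separate support. Row 3 was dim throughout and below the filter, with 10.1 and 3.22 in RA siRNF20 cells and 5.64 in RA siLacZ cells, against 14.9 to 23.2 on the 4 DMSO arrays. Over the 6 rows the log2 difference ran between -5.02 and -1.89 in siRNF20 cells and between -4.40 and -1.51 in siLacZ cells. Taken over all 6 rows, the gene's log2 difference was -4.43 in siRNF20 cells and -3.88 in siLacZ cells.

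**Figure D2:**
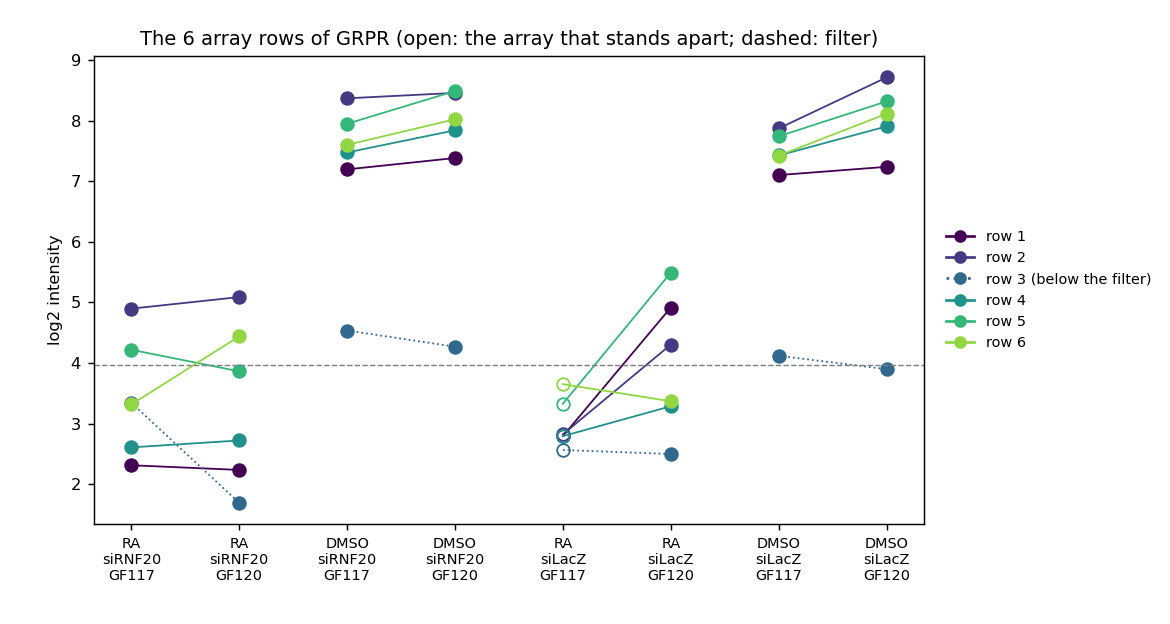
Log2 intensity of each of the 6 GRPR rows on the 8 arrays (lines join the 2 arrays of a group, open points are the GF117 RA siLacZ array, the dashed line is the filter at log2 3.97). Each row is lower on the RA arrays than on the DMSO arrays, and row 3 stays near or below the filter on all of them.

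GRPR was chosen by RA differences that use all 4 groups, though not by siRNF20 against siLacZ. The comparisons below thus share values with the choice, most of all those in RA and of the responses. In DMSO the GRPR intensities were 194.5 and 260.8 in siRNF20 cells and 172.3 and 277.6 in siLacZ cells, and the groups overlapped. The log2 difference was 0.04 (SE 0.30, 95% interval -0.64 to 0.72, limma adjusted p = 0.9997). In RA the intensities were 9.95 and 14.5 in siRNF20 cells and 19.7 on the siLacZ array kept, with a log2 difference of -0.71 (SE 0.37, interval -1.55 to 0.12, adjusted p = 0.676). With the array that stood apart included, that difference was 0.03. On the arrays kept the GRPR rows went both ways. Rows 1, 4 and 5 had -2.64, -0.62 and -1.45, while rows 2, 3 and 6 had 0.69, 0.02 and 0.51. The RA response of siRNF20 cells minus that of siLacZ cells was -0.76 (SE 0.48, interval -1.83 to 0.32, adjusted p = 0.9994). No difference passed the test, and the intervals still allow one of more than 1.5 log2 units between the responses. Over all genes the test called 0% of them for siRNF20 in DMSO, 0.0107% for siRNF20 in RA and 0% for the comparison of the responses.

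The sequence just upstream of the 3 receptor genes is shown because these genes encode receptors of 1 family and only GRPR had a large RA difference. The windows are the 250 bases before the start that RefSeq's promoter table (GRCh38.p14) uses for the gene, on the gene's strand, 5′ to 3′. Capitals mark each match to TGACG on either strand, the short form of the cAMP response element. They are chrX:16123315-16123564 (plus strand) for GRPR, chr6:142147123-142147372 (minus strand) for NMBR and chrX:136487697-136487946 (plus strand) for BRS3.
GRPR: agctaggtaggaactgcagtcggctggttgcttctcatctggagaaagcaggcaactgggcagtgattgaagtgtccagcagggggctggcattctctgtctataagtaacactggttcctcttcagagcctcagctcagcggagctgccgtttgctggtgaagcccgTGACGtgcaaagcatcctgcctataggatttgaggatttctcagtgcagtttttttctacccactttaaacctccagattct
NMBR: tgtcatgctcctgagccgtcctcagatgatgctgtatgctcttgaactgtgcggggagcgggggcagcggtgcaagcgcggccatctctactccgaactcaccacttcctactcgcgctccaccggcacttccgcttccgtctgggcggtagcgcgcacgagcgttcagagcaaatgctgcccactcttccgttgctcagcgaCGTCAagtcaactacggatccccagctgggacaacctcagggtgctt
BRS3: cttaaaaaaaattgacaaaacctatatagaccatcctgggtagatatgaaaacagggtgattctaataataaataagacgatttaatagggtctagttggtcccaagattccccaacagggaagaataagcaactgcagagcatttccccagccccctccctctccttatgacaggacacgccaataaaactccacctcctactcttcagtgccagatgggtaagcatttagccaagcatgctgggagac
The GRPR window holds 5 CpG dinucleotides and 50.8% G and C, the NMBR window 21 and 61.2% and the BRS3 window 2 and 43.6%. The median of 35116 promoter windows of this length was 11 CpG and 58% G and C, with quartiles of 3 and 23 CpG. The windows of the ligand genes had 21 CpG (GRP, 62.4% G and C) and 23 CpG (NMB, 74.0%), and that of GRP lies inside the span RefSeq gives the gene, downstream of its first base. TGACG was found once each in GRPR, with its first base 82 bases before the start, in NMBR and in GRP, and in 21.2% of all windows. The hexamer AGGTCA, the core element that RA receptors bind, was in none of the 5 windows and in 12.1% of all, and its direct repeat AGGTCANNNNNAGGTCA was in 1 of all the windows and none of the 5. TATAAA was in the GRP window and in 10.7% of all, and GGGCGG was in those of NMBR, GRP and NMB (3 matches) and in 42.6% of all. These are matches of letters on either strand in these windows.

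NMBR, the neuromedin B receptor, differed little between the groups in the median of the rows used and passed no test. The 2 of its 8 rows above the filter gave intensities of 49.95 and 53.9 in RA siRNF20 cells, against 42.6 and 42.9 in DMSO siRNF20 cells. They gave 42.5 on the RA siLacZ array kept and 85.7 on the one that stood apart, against 45.7 and 51.9 in DMSO siLacZ cells. The RA arrays lay above DMSO in siRNF20 cells by 0.28 on the log2 scale (SE 0.23, limma adjusted p = 0.680) and below it in siLacZ cells by a log2 difference of -0.20 (SE 0.28, adjusted p = 0.819). Neither passed the test. The 2 rows used went opposite ways in siLacZ cells, with log2 RA differences of -0.76 (row 5) and 0.36 (row 6). In siRNF20 cells they had 0.09 and 0.47. For siRNF20 against siLacZ in RA they had 0.74 and -0.17. The other 6 rows had intensities of 2.004 to 27.5 on the 7 arrays, against 21.2 to 88.6 for the 2 rows used.

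BRS3, the orphan member of the family, rests on 1 row of 7. That row had 122.5 and 264.8 in RA siRNF20 cells, against 212.8 and 183.9 in DMSO siRNF20 cells. It had 206.6 on the RA siLacZ array kept and 1087 on the array that stood apart, against 129.2 and 124.6 in DMSO siLacZ cells. The siRNF20 groups overlapped. The log2 RA difference was -0.14 (SE 0.31, limma adjusted p = 0.912) in siRNF20 cells and 0.70 (SE 0.38, adjusted p = 0.426) in siLacZ cells. For siRNF20 against siLacZ in DMSO it was 0.64 (SE 0.31, adjusted p = 0.9997). The 6 other BRS3 rows had intensities of only 3.12 to 22.5 on the 7 arrays, so the gene's value is that of a single bright row that the other rows do not share.

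GRP, the precursor of the peptide that GRPR binds, passed no test in either background. Its intensities, from 2 of 6 rows, were 51.8 and 105.8 in RA siRNF20 cells, against 63.1 and 77.8 in DMSO siRNF20 cells. They were 70.0 on the RA siLacZ array kept and 41.3 on the one that stood apart, against 65.1 and 75.5 in DMSO siLacZ cells. RA and DMSO values overlapped in both backgrounds, and the log2 RA difference was 0.08 (SE 0.32, limma adjusted p = 0.953) in siRNF20 cells and -0.00 (SE 0.39, adjusted p = 0.999) in siLacZ cells. The 4 other rows had 2.95 to 25.3 on the 7 arrays.

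NMB, the neuromedin B precursor, was measured by 7 of its 8 rows and varied most between arrays of 1 group among the 4 genes other than GRPR. Its intensities were 41.8 and 16.02 in RA siRNF20 cells, against 61.3 and 37.5 in DMSO siRNF20 cells. They were 43.1 on the RA siLacZ array kept and 16.98 on the one that stood apart, against 83.7 and 30.6 in DMSO siLacZ cells. In the 3 groups with 2 arrays kept, the GF117 array was the higher one in this median and in rows 2, 3, 5 and 6. Rows 4 and 8 went the other way in all 3 groups, and row 7 differed between groups. Row 4, the brightest, had 188.9 (GF117) and 374.8 (GF120) in RA siRNF20 cells. The log2 RA difference was -0.89 (SE 0.54, 95% interval -2.11 to 0.33, limma adjusted p = 0.518) in siRNF20 cells and -0.23 (SE 0.67, adjusted p = 0.920) in siLacZ cells, and 5 of the 8 rows were lower in RA in both backgrounds. With the GF number as a replicate block the difference in siRNF20 cells had an adjusted p of 0.0444, and with a stricter filter on dim rows it was -0.09 (adjusted p = 0.945). Over all genes each contrast called 3.92% or less without the block. In the 20 tests of the 4 genes other than GRPR over the 5 contrasts none was called.

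**Figure D3:**
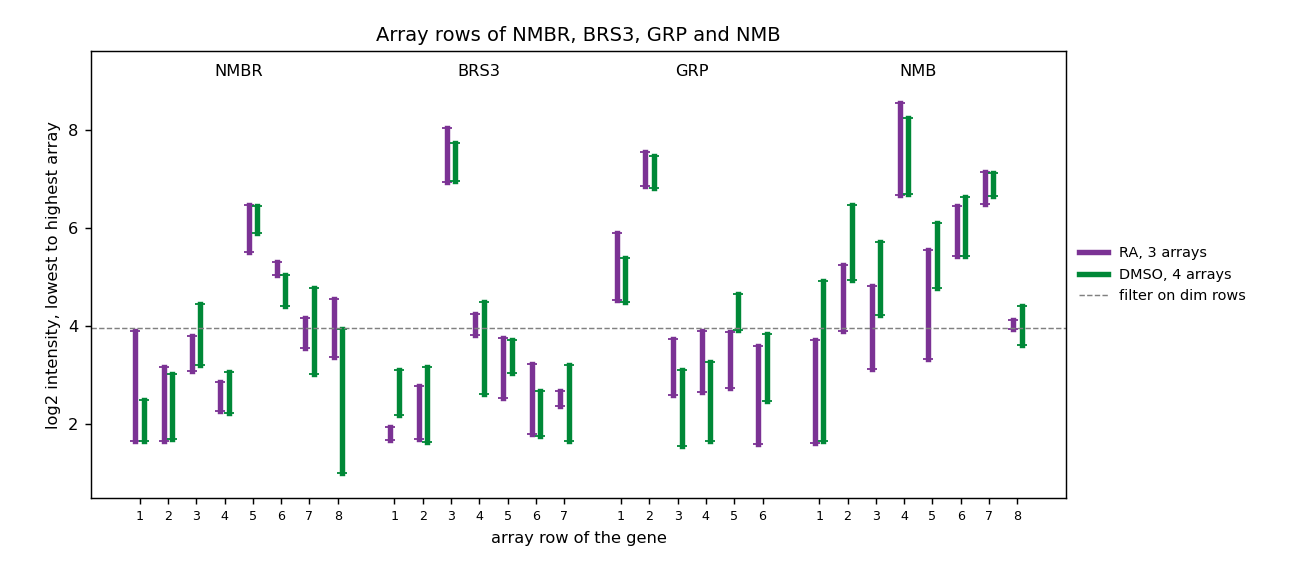
Log2 intensity of each row of NMBR, BRS3, GRP and NMB; bars run from the lowest to the highest of the 3 RA arrays kept (purple, left) and of the 4 DMSO arrays (green, right), and the dashed line is the filter on dim rows. NMBR and GRP rest on 2 bright rows each, BRS3 on 1 and NMB on 7.

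Among 25 genes of Gq and phospholipase C signalling, the pathway these receptors use, 1 was higher and 2 were lower with RA in siRNF20 cells, and 1 was higher in siLacZ cells. The calls in siRNF20 cells were 12% of the list, against 3.92% of all genes. In siLacZ cells the call was 4% of the list, against 3.91% of all genes. The median log2 difference was -0.29 in siRNF20 cells and -0.34 in siLacZ cells, against -0.03 and -0.05 over all genes. These counts, like those of the lists that follow, come from the fit without a replicate block, and with all 8 arrays no list member was called. GRK5, a kinase that phosphorylates active G protein-coupled receptors, had 64.1 and 73.7 in RA siRNF20 cells, against 25.9 and 22.6 in DMSO siRNF20 cells. It had 115.9 in RA siLacZ cells, against 21.9 and 22.3 in DMSO siLacZ cells. GRK5 rose by 1.504 on the log2 scale (SE 0.24, limma adjusted p = 0.00842) in siRNF20 cells and by 2.39 (SE 0.30, adjusted p = 0.00217) in siLacZ cells. ITPR3, a calcium release channel opened by inositol trisphosphate, fell by 1.06 (adjusted p = 0.0475) and PLCB3, a phospholipase C isoform that Gq activates, fell by 0.78 (adjusted p = 0.0477) in siRNF20 cells. The siRNF20 call of GRK5 was lost without the GF120 array of RA siRNF20 (adjusted p = 0.0567) or of DMSO siRNF20 (0.0637). That of ITPR3 was lost without any 1 of the 4 siRNF20 arrays (0.0780 to 0.247), and that of PLCB3 without the GF120 RA siRNF20 array or any 1 of the 4 DMSO arrays (0.0864 to 0.388). A stricter filter on dim rows ended both GRK5 calls, with log2 differences of 0.99 in siRNF20 cells (0.121) and 1.13 in siLacZ cells (0.140), and that of ITPR3 (0.0848). With no filter neither ITPR3 (0.0511) nor PLCB3 (0.0531) was called.

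Of the 12 early genes and kinases that act downstream of the receptors, 11 were measured, and 2 fell with RA in siRNF20 cells and 1 in siLacZ cells, with a median log2 difference of 0.02 in siRNF20 cells and 0.18 in siLacZ cells. The calls in siRNF20 cells were 18.2% of the genes measured, against 3.92% of all genes. In siLacZ cells the call was 9.09% of them, against 3.91% of all genes. MYC, a transcription factor that promotes growth, had 82.5 and 74.6 in RA siRNF20 cells, against 344.6 and 308.7 in DMSO siRNF20 cells. It had 34.3 in RA siLacZ cells, against 295.3 and 160.8 in DMSO siLacZ cells. MYC fell by 2.06 on the log2 scale (limma adjusted p = 0.00289) in siRNF20 cells and fell by 2.67 (adjusted p = 0.00221) in siLacZ cells. FOS, a subunit of the AP-1 factor, had 38.3 and 32.1 in RA siRNF20 cells, against 177.2 and 93.04 in DMSO siRNF20 cells, and fell by 1.87 (adjusted p = 0.0110). In siLacZ cells its log2 difference was -1.61 (adjusted p = 0.0575). With no filter on dim rows MYC had a log2 difference of -4.20 in siLacZ cells. Without the GF117 DMSO siRNF20 array the siRNF20 call of FOS was lost (adjusted p = 0.0830).

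Among 15 genes that process, store or break down peptide precursors, 1 rose with RA in siRNF20 cells and 2 in siLacZ cells, and none fell. The call in siRNF20 cells was 6.67% of the list, against 3.92% of all genes. In siLacZ cells the calls were 13.3% of the list, against 3.91% of all genes. The medians were -0.27 in siRNF20 cells and 0.04 in siLacZ cells. CPE, the carboxypeptidase that trims cut precursors, had 555.8 and 588.9 in RA siRNF20 cells, against 186.9 and 143.3 in DMSO siRNF20 cells. It had 532.8 in RA siLacZ cells, against 148.5 and 118.4 in DMSO siLacZ cells. It rose by 1.81 on the log2 scale (limma adjusted p = 0.000972) in siRNF20 cells and by 2.01 (adjusted p = 0.00185) in siLacZ cells. PCSK2, a convertase that cuts precursors, rose by 1.58 in siLacZ cells (adjusted p = 0.0374), with 69.6 in RA, against 22.9 and 23.5 in DMSO. In siRNF20 cells its log2 difference was 1.09 (adjusted p = 0.0748). The siLacZ call of PCSK2 was lost without the GF120 RA siRNF20 array (0.0543) or either DMSO siLacZ array (0.133 and 0.151), with no filter on dim rows (0.0772) and with a stricter one, where its log2 difference was 0.57 (0.398).

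**Figure D4:**
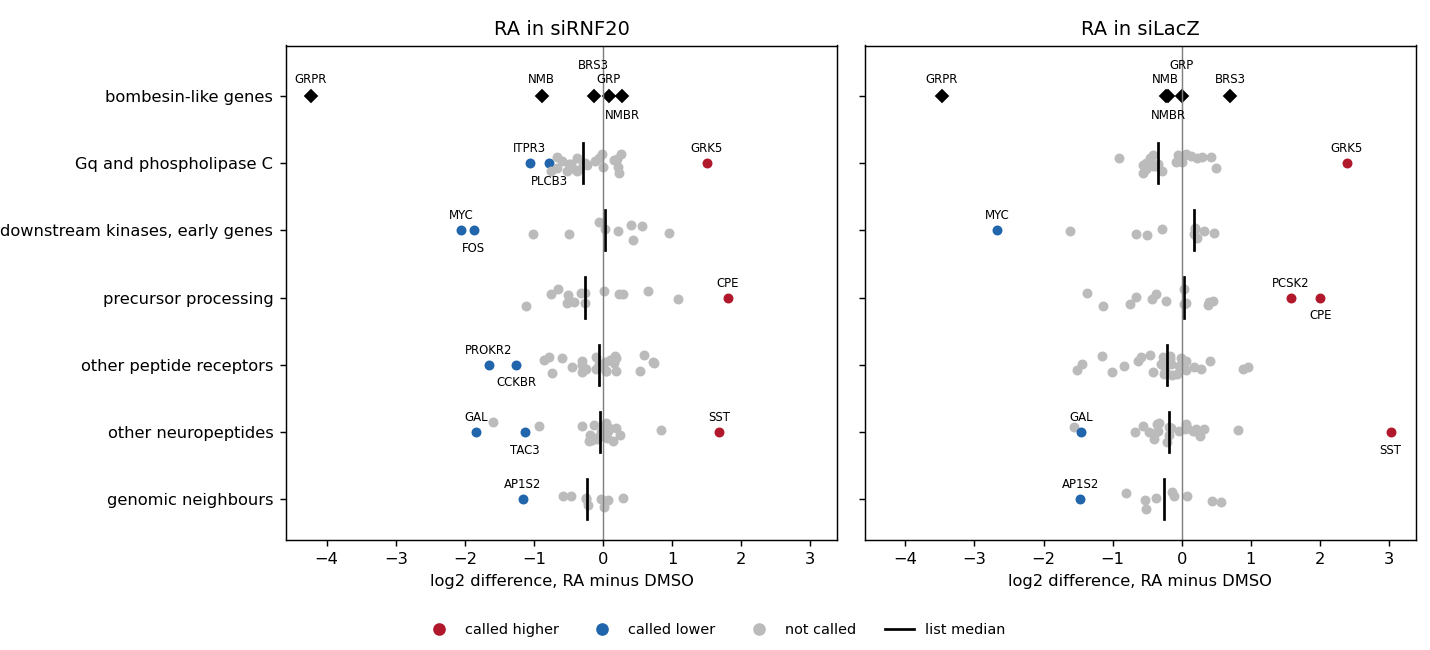
Log2 difference of RA minus DMSO in siRNF20 cells (left) and siLacZ cells (right) for the 5 bombesin-like genes and for each member of 6 gene lists; black ticks are list medians and genes called by limma are coloured and named. GRPR lies at -4.23 in siRNF20 cells and -3.47 in siLacZ cells, left of every list member, and the list medians lie between -0.34 and 0.18. GRPR was chosen by this difference, so its place left of the lists is not a test.

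Of 32 other peptide receptors, most of which couple to Gq, 28 were measured, and 2 fell with RA in siRNF20 cells and none was called in siLacZ cells. The calls in siRNF20 cells were 7.14% of the genes measured, against 3.92% of all genes. In siLacZ cells the share was 0%, against 3.91% of all genes. The medians were -0.06 in siRNF20 cells and -0.21 in siLacZ cells. PROKR2, a prokineticin receptor, had 27.8 and 14.2 in RA siRNF20 cells, against 64.6 and 61.0 in DMSO siRNF20 cells, and fell by 1.66 on the log2 scale (limma adjusted p = 0.0377). CCKBR, the gastrin and cholecystokinin receptor, had 45.8 and 87.9 in RA siRNF20 cells, against 144.8 and 158.6 in DMSO siRNF20 cells, and fell by 1.26 (adjusted p = 0.0449). In siLacZ cells the log2 difference was -1.45 for CCKBR (adjusted p = 0.0575) and -1.15 for PROKR2 (adjusted p = 0.232). Both siRNF20 calls were lost without any 1 of the 4 DMSO arrays, and without the GF120 RA siRNF20 array for PROKR2 (0.0512 to 0.291) and the GF117 RA siRNF20 array for CCKBR (0.0812 to 0.194). Without that last array the CCKBR difference was -0.79, and with a stricter filter on dim rows the PROKR2 difference was 0.24. With no filter (0.0647) or the mean over rows (0.0725) CCKBR was not called.

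Among 25 other neuropeptide precursors, 1 rose and 2 fell with RA in siRNF20 cells, and 1 rose and 1 fell in siLacZ cells, with medians of -0.04 in siRNF20 cells and -0.18 in siLacZ cells. The calls in siRNF20 cells were 12% of the list, against 3.92% of all genes. In siLacZ cells the calls were 8% of the list, against 3.91% of all genes. GAL, the galanin precursor, had 133.1 and 166.3 in RA siRNF20 cells, against 532.2 and 529.3 in DMSO siRNF20 cells. It had 117.2 in RA siLacZ cells, against 345.1 and 300.5 in DMSO siLacZ cells. GAL fell by 1.83 on the log2 scale (limma adjusted p = 0.000585) in siRNF20 cells and fell by 1.46 (adjusted p = 0.00722) in siLacZ cells. SST, the somatostatin precursor, had 71.6 and 57.2 in RA siRNF20 cells, against 30.6 and 12.98 in DMSO siRNF20 cells. It had 124.8 in RA siLacZ cells, against 14.2 and 16.6 in DMSO siLacZ cells. SST rose by 1.68 (adjusted p = 0.0475) in siRNF20 cells and by 3.02 (adjusted p = 0.00815) in siLacZ cells. TAC3, the neurokinin B precursor, had 38.0 and 40.5 in RA siRNF20 cells, against 84.0 and 88.2 in DMSO siRNF20 cells, and fell by 1.13 (adjusted p = 0.0201). The SST call in siRNF20 cells was lost without any 1 of the 7 arrays (0.0588 to 0.211), with a log2 difference of 1.06 without the GF120 DMSO siRNF20 array. The siLacZ calls of GAL (0.0554) and SST (0.05005) were lost without the GF117 DMSO siLacZ array, and that of TAC3 in siRNF20 cells without any 1 of the 4 siRNF20 arrays or the GF120 DMSO siLacZ array (0.0537 to 0.135). With a stricter filter the SST differences were 0.34 in siRNF20 cells (0.728) and 1.04 in siLacZ cells (0.202) and that of TAC3 in siRNF20 cells was -0.59 (0.304), none of them called. With the mean over rows SST had 0.78 in siRNF20 cells (0.125). No member of these 5 lists was called for siRNF20 against siLacZ or for the difference between RA responses.

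The genes next to GRPR on the X chromosome were looked at for comparison, 5 before it (CLTRN, CA5BP1, CA5B, ZRSR2 and AP1S2) and 5 after it (MAGEB17, LOC100132857, CTPS2, S100G and SYAP1) in the RefSeq order. Their median log2 RA difference was -0.23 in siRNF20 cells and -0.25 in siLacZ cells. AP1S2, a subunit of a clathrin adaptor, was the 1 neighbour called. In each background that was 10% of the neighbours, against 3.92% of all genes in siRNF20 cells and 3.91% in siLacZ cells. AP1S2 is described first. It had 124.5 and 78.7 in RA siRNF20 cells, against 234.4 and 209.2 in DMSO siRNF20 cells, and 77.3 in RA siLacZ cells, against 205.8 and 221.3 in DMSO siLacZ cells. It fell by 1.16 on the log2 scale (limma adjusted p = 0.0272) in siRNF20 cells and fell by 1.47 (adjusted p = 0.0243) in siLacZ cells. The siRNF20 call was lost without the GF120 RA siRNF20 array or any 1 of the 4 DMSO arrays (0.0550 to 0.197), and the siLacZ call without either DMSO siLacZ array (0.0998 and 0.110). With no intensity trend neither was called (0.0671 in siRNF20 cells and 0.0615 in siLacZ cells). ZRSR2, a splicing factor gene, had log2 differences of -0.58 in siRNF20 cells and -0.80 in siLacZ cells, CA5B, a mitochondrial carbonic anhydrase gene, had 0.28 and 0.58, and CA5BP1 had -0.25 and -0.37. CTPS2, a CTP synthase gene, had -0.24 in siRNF20 cells and -0.10 in siLacZ cells, SYAP1 had 0.08 and -0.13, CLTRN had -0.22 and 0.44, S100G had -0.46 and 0.08, MAGEB17 had -0.03 and -0.51, and LOC100132857 had 0.01 and -0.54. None of these 9 passed the test.

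The genes whose profile was most like that of GRPR were sought among the 255 genes with a standard deviation of at least 1 on the log2 scale over the 7 arrays. Likeness was the root mean square of the log2 differences from GRPR over these 7 arrays after each gene's own mean was taken off, a description that rests on the same RA difference that chose GRPR. The 5 closest were KDR at 0.617, CRIPTO3 at 0.617, CR2 at 0.627, CHST4 at 0.634 and PMAIP1 at 0.678. KDR encodes a receptor of vascular endothelial growth factor, CR2 a complement receptor, CHST4 a sulfotransferase, PMAIP1 a promoter of apoptosis, and CRIPTO3 is a near copy of CRIPTO, whose signal it can share, read by 1 row. KDR had 16.4 and 12.9 in RA siRNF20 cells, against 161.1 and 144.7 in DMSO siRNF20 cells, and 14.9 in RA siLacZ cells, against 150.8 and 101.7 in DMSO siLacZ cells. The log2 RA difference of these 5 genes lay between -3.39 and -2.97 in siRNF20 cells and between -3.21 and -2.78 in siLacZ cells, against -4.23 and -3.47 for GRPR. With all 8 arrays the siLacZ difference was -5.47 for CRIPTO3 and -4.21 for GRPR. With all 8 arrays (4694 genes), and with no filter on dim rows (267 genes), KDR, CR2 and PMAIP1 were again among the 5 closest. CHST4 was among them with 8 arrays and in place 19 with no filter. CRIPTO3 moved to place 70 of the 4694 genes and to place 68 of the 267.

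**Figure D5:**
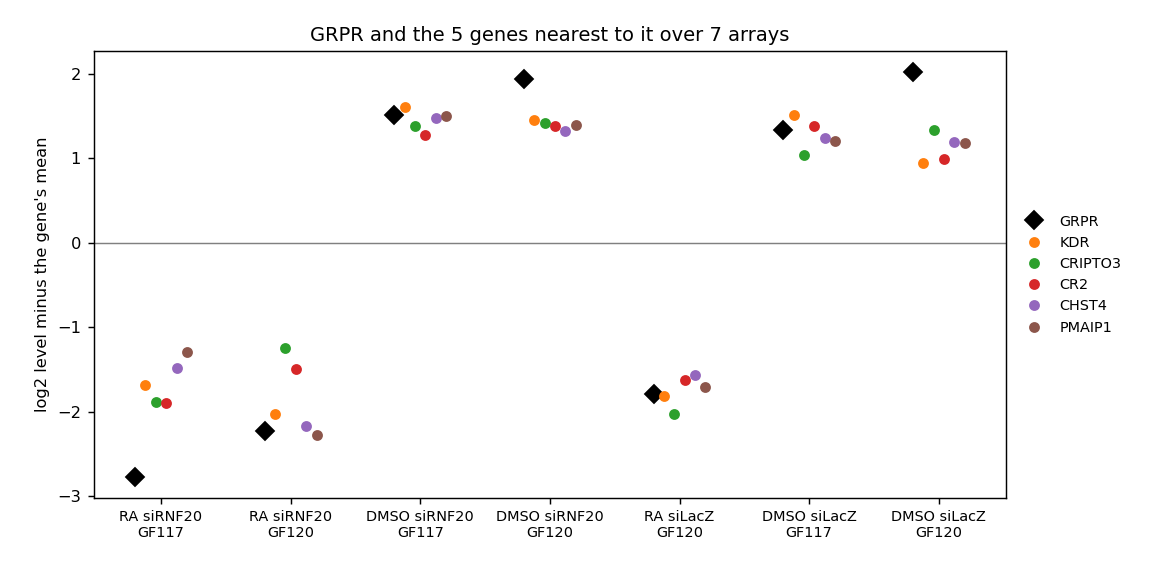
Log2 intensity, with each gene's mean over the 7 arrays taken off, of GRPR and the 5 genes with the profile most like it, on the 7 arrays kept. All 6 genes are low on the 3 RA arrays and high on the 4 DMSO arrays, in siRNF20 and in siLacZ cells.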

How the data were processed

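The data are 8 Affymetrix exon arrays of NTera2/D1 cells, grown as biological duplicates per the labels' protocols. The deposited values are linear intensities, 1 per array row and array; how the authors corrected background and normalized them, and the tools, are not given in the sources used here. Of 1384231 rows 354600 had 1 gene symbol in the probe set annotation, 14898 had several and 1014733 were not listed, and only the first were used. The 19497 symbols gave 19426 genes (2950 updated through an older symbol, 121 kept). Values were put on the log2 scale. Only rows brighter on average than the median row (the filter on dim rows) were kept, and their median in each array stands for the gene, printed in the report as intensity.

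limma 3.58.1 (R 4.3.3, data.table version 1.17.8) fitted the 4 group means with an intensity trend, with 5 contrasts (RA in each background, siRNF20 in each treatment, and their difference). Adjusted p-values are two-sided, Benjamini-Hochberg over 18732 genes, and genes were called below 0.05. An exact permutation test of 2 arrays against 2 could not go below 0.333. Arrays have no depth in counts, and their number limits the precision.

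The members, lists, rule for named genes and decision to leave out the GF117 RA siLacZ array were chosen with earlier results of these data known. Named by rule were the 5 genes, RNF20, the 10 neighbours, the 5 most like GRPR and in each list up to 4 called members with the largest change. VSNL1, NANOG and ETS1 were named after their values were seen. The labels do not say what GF numbers stand for, so they were not treated as pairs. Deviations from group means of arrays with 1 number correlated at 0.286 to 0.360 among groups other than RA siLacZ, and so were all positive. With RA siLacZ, which holds the array that stood apart, they correlated at -0.390 to -0.0705. A replicate block for the number raised the count of genes called with RA. Alternatives were all 8 arrays, leaving out each array, the filter, an offset, the mean over rows, quantile normalization, no trend and a replicate block. Promoters are RefSeq's, and all 5 genes matched by symbol; figures used Python 3.11.15 and matplotlib 3.10.9. Code was tested on simulated data.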

Additional observations from a re-analysis of the deposited data

Results flagged for a closer look

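BRS3 had a log2 level of 10.09 on the GF117 RA siLacZ array, which no comparison given first uses, against a highest level of 8.05 on the other RA arrays and 7.73 on the DMSO arrays. NMBR had 6.42 on the same array, against 5.75 at most on the other RA arrays and 5.70 on the DMSO arrays. Both are singled out because the signal lies above that of the control arrays in an array left out of the main comparisons. The BRS3 level comes from 1 row and the NMBR level from 2 that went different ways. On this array NMBR row 6 had an intensity of 140.6, against 21.2 to 32.8 on the DMSO arrays. Row 5 had 52.3, against 59.6 to 86.8 on the DMSO arrays. The array also stands apart in its other genes, and the part of the rows or of the array in these values was not tested.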

How the results depend on the processing

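With all 8 arrays, limma called 0 genes with RA in siLacZ, 0 with RA in siRNF20 and 0 for siRNF20 in RA, and 0 list members and 0 neighbours. With the GF number as a replicate block it called 1792 and 1959 genes for the RA contrasts, 1 for siRNF20 in DMSO, 232 for siRNF20 in RA, 4 for the difference between responses, 36 list members against 17 (for RA in siRNF20 and in siLacZ 6 and 1 of the Gq list, 3 and 2 early genes, 5 and 5 processing genes, 3 and 2 other receptors, 6 and 3 neuropeptides), and 1 of the 4 other bombesin-like genes. With no intensity trend 456 genes were called with RA in siLacZ, 1 for siRNF20 in RA, and 0 neighbours. A stricter filter left 11 list calls. Without a filter, and with a stricter one, the mean over rows, the offset or quantile normalization, 0 genes were called for siRNF20 in RA. The log2 RA difference of GRPR in siLacZ cells was -4.21 with all 8 arrays, -3.88 with no filter and -2.72 with the offset, and in siRNF20 cells -3.10 with the offset. For siRNF20 in RA it was 0.0261 with all 8 arrays and 0.0264 with a stricter filter. With the replicate block GRPR had -3.75 for RA in siLacZ, -0.44 for siRNF20 in RA and -0.48 for the comparison of responses. Uncalled differences that turned were, with all 8 arrays, NMBR 0.31 for RA in siLacZ, -0.22 for siRNF20 in RA and -0.0310 for the comparison of responses, and NMB 0.0809 for siRNF20 in DMSO, 0.20 in RA and 0.12 for that comparison. With no filter they were NMBR 0.34 for siRNF20 in DMSO, BRS3 -0.22 for RA in siLacZ and 0.26 for siRNF20 in RA, and GRP -0.13 for RA in siRNF20 and 0.17 for siRNF20 in DMSO. With a stricter filter they were GRP -0.11, 0.33 and -0.0595 (RA in siRNF20, siRNF20 in DMSO, the difference), NMB 0.23, 0.25 and 0.0229 (siRNF20 in DMSO, siRNF20 in RA, the difference) and PROKR2 0.24. The mean over rows gave NMB 0.16 and 0.14 for siRNF20 in DMSO and RA, the offset NMB 0.0522 and GRP 0.0426 for siRNF20 in DMSO, and the block NMB 0.36 for RA in siLacZ. Leaving out 1 of the 7 arrays at a time, the GRPR difference ran between -3.81 and -3.12 for RA in siLacZ, -4.50 and -3.95 for RA in siRNF20, -0.30 and 0.39 for siRNF20 in DMSO, -0.99 and -0.44 for siRNF20 in RA, and -1.10 and -0.41 for the comparison of responses. Genes called ran between 317 and 970, 324 and 720, 0 and 1, 0 and 2, and 0 and 0 in the same order, list members between 10 and 19 and neighbours between 0 and 2. The uncalled differences of BRS3 ran between -0.69 and 0.42 (RA in siRNF20) and -0.75 and 0.36 (siRNF20 in RA). Those of GRP ran between -0.11 and 0.10, -0.44 and 0.86, -0.24 and 0.15, -0.44 and 0.57, and -0.43 and 0.815 over the 5 contrasts, and those of NMB between -0.93 and 0.49 (RA in siLacZ), -0.54 and 0.65 (siRNF20 in DMSO) and -1.39 and 0.45 (the difference). The cause of these changes was not tested. Dim signal limits the RA level of GRPR and most NMBR, BRS3 and GRP rows.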
